A study of Danio rerio with 4 samples.

Results

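The change in polysome association between eif3ha morphants and wild-type zebrafish embryos (Danio rerio) was measured for 7546 of the 32313 Ensembl genes in the files, 23.4% of them. For each gene the ratio of polysomal to total mRNA was taken on a log2 scale in morphants and in wild type, and the wild-type value was subtracted from the morphant value. A negative change means that a transcript's ratio of polysomal to total mRNA, relative to other transcripts, was lower in morphants. Levels are RPKM, a read density that allows for gene length and for how many reads each library mapped, and 0.5 was added to each before taking logs, which makes changes of low genes look smaller. The floor for a gene was 3 RPKM, reached in both of the total libraries and in 1 or both of the polysomal ones.

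There were 4 groups, each whole embryos at about 24 hours after fertilization: polysomal mRNA of morphants, polysomal mRNA of wild type, total mRNA of morphants and total mRNA of wild type. Morphants had received a morpholino (a synthetic antisense oligonucleotide) that targets eif3ha, and the wild-type groups are not labelled as injected with anything. The labels name no control morpholino and leave unsaid what step the oligonucleotide blocks, so effects of injection and of eif3ha knockdown cannot be told apart. Polysomal mRNA came from 300 pooled embryos and total mRNA from 50. The ratio of polysomal to total mRNA thus compares pools of unlike size, and is not a share of the mRNA of the same embryos. Differences between the pools and differences in ribosome loading cannot be told apart. Each group has 1 library, so no change given here has a replicate check and no test between groups was possible.

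A transcript carrying several ribosomes at once sediments as a polysome, and its share in that fraction is a readout of how actively it is being translated. Initiation sets most of that share: eIF3, a complex of many subunits, binds the small ribosomal subunit and helps bring it to the mRNA. The h subunit is not part of the core found in budding yeast, and in animals it has been studied as a subunit that affects some transcripts more than others. At 24 hours the embryo has beating heart muscle, twitching trunk muscle, a forming lens and the first pigment, while the tailbud still adds new segments.

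Depth was 22001387 mapped reads in morphant and 15769467 in wild-type polysomal mRNA, and 21021428 in morphant and 24939985 in wild-type total mRNA. These depths were recovered from the equal steps in which low RPKM values move. The 50 most abundant genes took 38.8% of the summed RPKM in morphant and 43.7% in wild-type polysomal mRNA, against 24.1% in morphant and 24.2% in wild-type total mRNA. All 18 tissue and muscle lists had at least 1 gene above the floor, as whole embryos should. In whole embryos, fewer cells of a type and less RNA per cell cannot be told apart.

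Whether the targeted gene itself was measured is not certain. The feature named EIF3H (ENSDARG00000036116) stood at 7.60 RPKM in morphant and 6.33 RPKM in wild-type polysomal mRNA, and at 5.92 RPKM in morphant and 6.24 RPKM in wild-type total mRNA. Which of the zebrafish eif3h copies this is cannot be read from the annotation. Its association change was 0.32 (95% counting interval of the value without pseudocount, -0.22 to 0.90), so no change was detectable at this depth, and an mRNA level is no gauge of a knockdown whose mode is unstated.

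For most transcripts the change was small. The median change was -0.00 on the log2 scale, the middle 50% of genes lay between -0.26 and 0.24, and the SD over genes was 0.475. Morphants had at least 2-fold lower association for 232 genes, 3.07% of those measured, and at least 2-fold higher association for 122 genes, 1.62%, so that 354 genes, 4.69%, passed 2-fold in all. At shares this low, a short list with 0 genes past 2-fold cannot be told apart from all genes by that count. Of all 7546 genes, 3737 lay above 0 and 3809 below. Counts of list members above or below 0 are to be read beside these. Counts of list members past 2-fold are to be read beside the 3.07% lower and 1.62% higher of all genes. The lower side reached farther, with 29 genes beyond 4-fold lower and 5 beyond 4-fold higher, over a range of -4.91 to 2.50. With RPKM rescaled to totals that leave out the 50 most abundant genes of each library, the median of all genes moved by 0.19, 234 genes were at least 2-fold higher, and the lower genes made up 40.0% of all those past 2-fold in place of 65.5%. The balance between the sides therefore depends on scaling, and the changes below are best read relative to the median of all genes. Relative to that median, no list of at least 5 genes moved by more than 0.015 under this scaling. Without a floor the median of all 32313 genes was -0.07, and list medians without a floor are to be read beside it.

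The spread of polysome association was narrower in morphants. Polysomal over total mRNA had an SD over genes of 0.983 in morphants and 1.14 in wild type, on the log2 scale. Genes more than 4-fold enriched on polysomes numbered 79 in morphants and 173 in wild type, and genes more than 4-fold depleted numbered 304 in morphants and 422 in wild type. The 232 lower genes had a median log2 ratio of polysomal to total mRNA of -0.16 in morphants and 1.16 in wild type. The 122 higher genes had a median of -0.88 in morphants and -2.22 in wild type. Thus the genes past 2-fold stood far from the middle in wild type and nearer to it in morphants, a direction that choosing the genes on this difference partly fixes.

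The highest library of each gene past 2-fold follows as a description, since choosing genes on a difference between these 4 values partly fixes which library is highest. Of the 232 lower genes, 166 had their highest RPKM in wild-type polysomal mRNA, 52 in morphant total, 8 in wild-type total and 6 in morphant polysomal mRNA. Of the 122 higher genes, 89 were highest in wild-type total, 19 in morphant polysomal, 14 in morphant total and 0 in wild-type polysomal mRNA. Polysomal mRNA alone differed (past 2-fold, with total mRNA within 1.5-fold) for 115 of the lower and 38 of the higher genes. Total mRNA alone differed for 18 lower and 2 higher genes. Both fractions differed past 1.5-fold in opposite directions for 28 lower and 11 higher genes. None of these kinds held 71 of the lower genes (30.6%) and 71 of the higher genes (58.2%). Wild-type polysomal mRNA was the highest library for 32 of the 34 muscle structure genes, all 4 lens genes and all 4 pigment genes that were at least 2-fold lower, and the part of that library in their changes was not tested. Leaving out every gene whose wild-type ratio of polysomal to total mRNA was over 4-fold gave 174 lower and 121 higher genes.

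**Figure D1:**
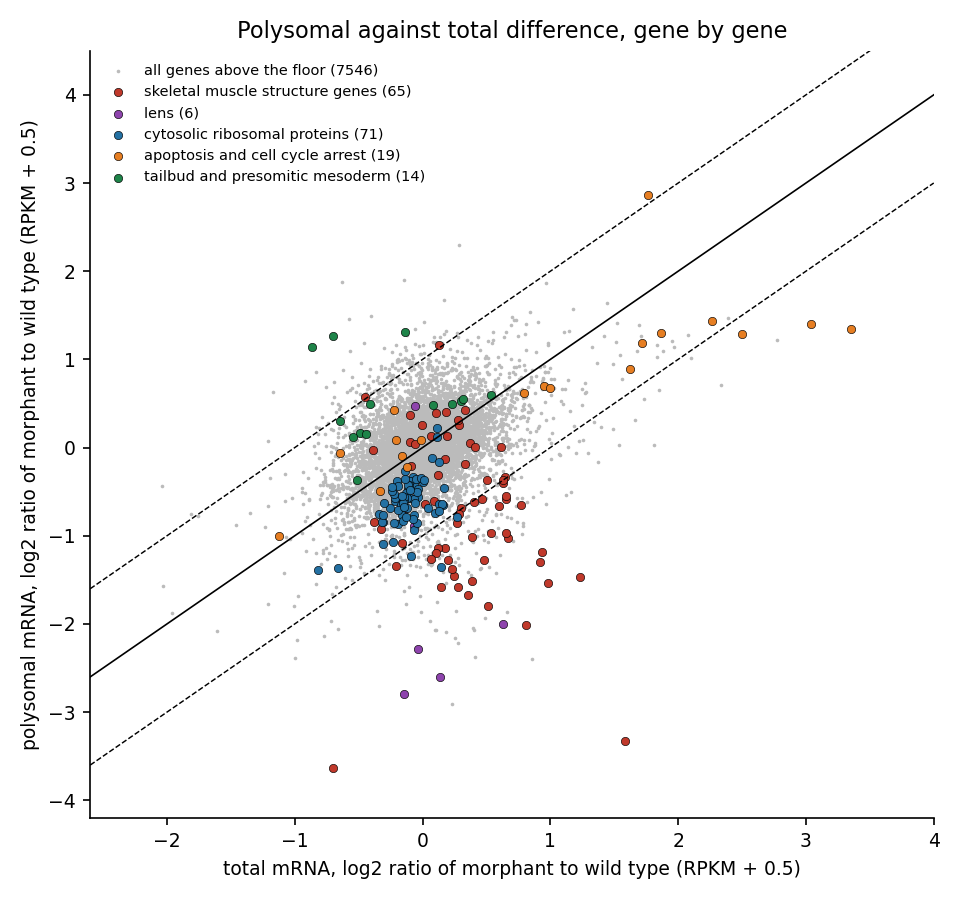
Each point is 1 of 7546 genes, with the log2 ratio of morphant to wild type in total mRNA on the x axis and in polysomal mRNA on the y axis (RPKM + 0.5). The solid line marks equal ratios, and genes outside the dashed lines differ in association by at least 2-fold; 34 muscle structure and 4 lens genes lie below them, 3 tailbud genes above, and the apoptosis and cell cycle arrest genes higher in morphant total mRNA to the right.

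Skeletal muscle structure genes, which are those of the thick filament, the thin filament, and calcium handling with creatine kinase, made up 14.7% of all lower genes. Of 65 above the floor (134 in the files), 34 had at least 2-fold lower association in morphants and 2 at least 2-fold higher, which is 52.3% and 3.08% against 3.07% and 1.62% of all genes. Their median association change was -1.03, and -0.50 over all 134 members without a floor. It joined a polysomal median of -0.66 with a total median of 0.28, both as log2 ratios of morphant to wild type, so these mRNAs were on balance more abundant in the morphant embryos and less abundant on their polysomes.

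Among thick filament genes, which encode myosins and the proteins that bundle and fold them, 12 of 16 were at least 2-fold lower, with a median of -1.33 (-0.38 over 34 members without a floor). The fast myosin-binding protein gene mybpc2b (ENSDARG00000021265) stood at 13 RPKM in morphant and 46.4 RPKM in wild-type polysomal mRNA, and at 11.2 RPKM in morphant and 7.72 RPKM in wild-type total mRNA, a change of -2.31. Only wild-type polysomal mRNA was high. The fast myosin heavy chains myhz1.1 (-2.02) and myhz2 (-1.72) were lower too, and so was the light chain gene MYL1 (ENSDARG00000017441) at -1.62. SMYD1, a methyltransferase that works with chaperones on myosin folding, is present as 2 features that went opposite ways. The copy ENSDARG00000009280 had 19.9 RPKM in morphant and 60.5 RPKM in wild-type polysomal mRNA (change -1.86), and the copy ENSDARG00000091253 had 37.2 RPKM in morphant and 16.3 RPKM in wild-type polysomal mRNA (change 1.04). Their levels in total mRNA also differed, at 7.31 RPKM in morphant and 5.94 RPKM in wild type for the first, and 180 RPKM in morphant and 164 RPKM in wild type for the other.

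Thin filament genes were more mixed: 9 of 26 were at least 2-fold lower and 1 was higher, with a median of -0.59. Without a floor the median was -0.12 over 58 members, near the -0.07 of all genes. The fast troponin T feature TNNT3 (ENSDARG00000068457) stood at 8.01 RPKM in morphant and 33.9 RPKM in wild-type polysomal mRNA, and at 5.98 RPKM in morphant and 3.19 RPKM in wild-type total mRNA. For the troponin I feature TNNI2 (ENSDARG00000029069) the values were 366 RPKM in morphant and 1015 RPKM in wild-type polysomal mRNA, and 125 RPKM in morphant and 53.2 RPKM in wild-type total mRNA. In both, morphants were higher in total mRNA and lower on polysomes, giving changes of -2.83 and -2.70. The second TNNI2 feature (ENSDARG00000035958) lay at -0.61, with 326 RPKM in morphant and 324 RPKM in wild-type polysomal mRNA. The Z-disc gene myoz1b, whose product anchors calcineurin, lay at -2.52, and the giant proteins nebulin (NEB) and titin (TTN) lay at -0.58 and -0.46.

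Calcium handling and energy buffering held the extreme of the whole comparison. Of 23 such genes, 13 were at least 2-fold lower and 0 higher, with a median of -1.14. The parvalbumin gene pvalb1 (ENSDARG00000037789), a cytosolic calcium buffer that speeds relaxation of fast fibres, stood at 295 RPKM in morphant and 2972 RPKM in wild-type polysomal mRNA, and at 59.4 RPKM in morphant and 19.5 RPKM in wild-type total mRNA. Its change of -4.91 (counting interval without pseudocount, -5.13 to -4.75) therefore rests on wild-type polysomal mRNA being high and on wild-type total mRNA being low. Parvalbumins did not share a size of change: pvalb4 stood at -2.94, pvalb2 at -2.12, pvalb8 at -1.14 and pvalb9 at -0.66. The last was as abundant in morphant total mRNA (125 RPKM) as in wild-type total mRNA (124 RPKM), with 5.60 RPKM in morphant and 9.03 RPKM in wild-type polysomal mRNA. The creatine kinase gene ckma, which regenerates ATP beside the myofibril, lay at -1.42, adenylate kinase AK1 at -1.69 and the calcium store protein gene CASQ2 at -1.24. The caveola protein gene cavin4a (ENSDARG00000038658), named here for its place among the 12 lowest genes, lay at -2.52.

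The list of muscle transcription factor and fusion genes had a median on the other side of 0. Of its 7 genes above the floor, 0 passed 2-fold in either direction. The median was 0.31, which is the value of the cell adhesion gene jam2a. The myogenic factor gene MYOG (ENSDARG00000009438) had 71.5 RPKM in morphant and 49.5 RPKM in wild-type polysomal mRNA, and 46.6 RPKM in morphant and 59.8 RPKM in wild-type total mRNA, a change of 0.88. MYOD1, which acts before it in the same lineage, lay at 0.36 and MEF2D at 0.54. For MEF2D, polysomal mRNA was 3.14 RPKM in morphant and 1.89 RPKM in wild type. It met the floor there through the morphant library alone, so its direction was partly fixed by the floor. In all, 2 of the 7 had 1 polysomal value under the floor. The median was 0.31 over the 5 genes with at least 3 RPKM in all 4 libraries. The 3 members below 0 were MEF2C at -0.22 and the cell adhesion genes jam2b at -0.16 and JAM3 at -0.11. Heart muscle had 4 genes above the floor, from TNNC1 at -0.99 to HAND2, a cardiac transcription factor gene, at 0.89.

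**Figure D2:**
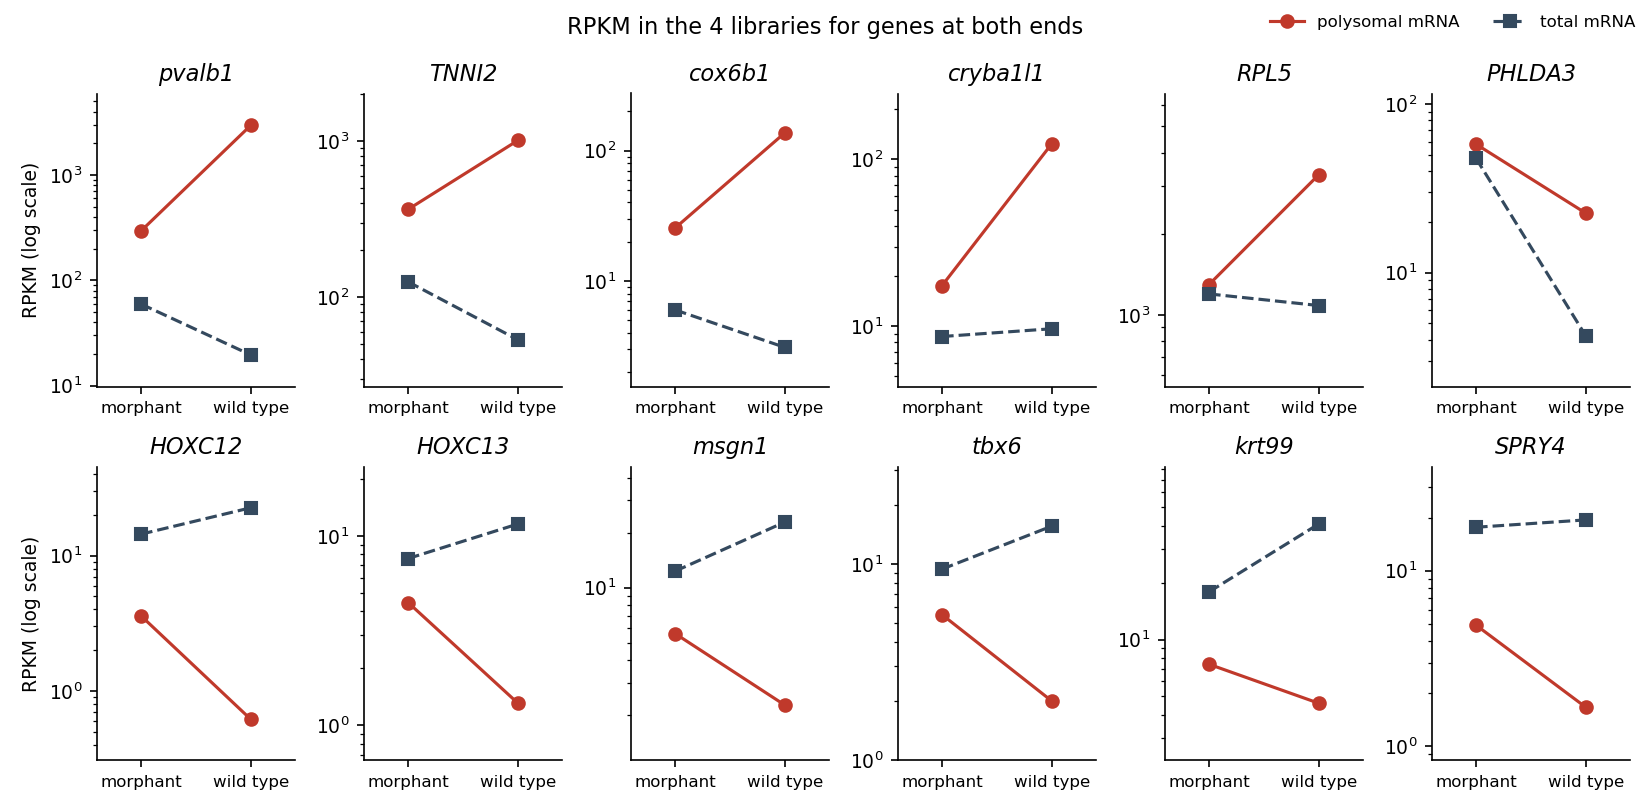
Levels in the 4 libraries for 12 genes, in RPKM on log axes that differ between panels, with morphant left of wild type; circles are polysomal and squares total mRNA, 1 library each. In the upper row, PHLDA3 apart, the wild-type polysomal value is far above the other 3; in the lower row the polysomal value is higher and the total value lower in morphants than in wild type.

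Lens genes had the lowest median of the lists with at least 5 genes above the floor, at -2.44 over 6 genes, 4 of them at least 2-fold lower, and -1.18 over 71 members without a floor. Crystallins are the densely packed soluble proteins that give the lens its refraction. CRYGN (ENSDARG00000030411) had 9.55 RPKM in morphant and 60.7 RPKM in wild-type polysomal mRNA, and 5.53 RPKM in morphant and 5.0 RPKM in wild-type total mRNA. The beta crystallin gene CRYBB1 lay at -2.24 on 13.6 RPKM in morphant and 68.0 RPKM in wild-type polysomal mRNA, and CRYBA4 at -0.83. In total mRNA the 2 conditions were close for CRYGN, CRYBB1 and cryba1l1 (-2.65), so these changes rest on the polysomal libraries. For cryba1b (-2.63) total mRNA was higher in morphants, at 7.44 RPKM against 4.63 RPKM in wild type. Its polysomal mRNA was lower, at 12.1 RPKM in morphant and 49.8 RPKM in wild type. The lens transcription factor gene pitx3 stood on the other side at 0.53. None of the 30 gamma M crystallins met the floor, since their highest value in total mRNA was 0.32 RPKM, although 0 of them in morphant and 17 in wild-type polysomal mRNA had at least 3 RPKM. Among 6 retina and optic cup genes only rbp4l (ENSDARG00000044684), which codes for a retinol-binding protein, was at least 2-fold lower, at -2.44, and both eye-field SIX3 features lay at 0.84 and 0.85.

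Pigment and neuronal genes had slightly negative medians, with a tail of lower genes. Of 16 pigment and neural crest genes, 4 were at least 2-fold lower and 0 higher, with a median of -0.23. The melanosome enzyme feature TYRP1 (ENSDARG00000029204) had 6.91 RPKM in morphant and 32.7 RPKM in wild-type polysomal mRNA, and 8.17 RPKM in morphant and 6.76 RPKM in wild-type total mRNA, a change of -2.42. The other TYRP1 feature (ENSDARG00000056151) lay at -2.17 and the melanosome matrix gene pmela at -1.53, while FOXD3, a factor of early crest cells, lay at 0.99. Of 38 neuronal genes, 6 (15.8%) were at least 2-fold lower and 0 higher, against 3.07% and 1.62% of all genes. Their median was -0.22. The largest was cplx2a (-1.49), a regulator of synaptic vesicle fusion, with 4.09 RPKM in morphant and 13.7 RPKM in wild-type polysomal mRNA, and 3.10 RPKM in morphant and 3.48 RPKM in wild-type total mRNA. The growth-cone microtubule gene STMN2 (ENSDARG00000033234) lay at -1.41. For 2 of the 6, the highest library was not wild-type polysomal but morphant total mRNA, as for the neuronal filament gene INA (-1.43), with 2.49 RPKM in morphant and 6.45 RPKM in wild-type polysomal mRNA, and 7.64 RPKM in morphant and 6.51 RPKM in wild-type total mRNA. INA met the polysomal floor through wild type alone, so its direction was partly fixed by the floor. In all, 8 of the 38 had 1 polysomal value under the floor. The neuronal median was -0.09 over the 30 genes with at least 3 RPKM in all 4 libraries and -0.02 over 10 genes with a floor of 12 RPKM.

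Neural progenitor genes had a median of the opposite sign. Of 64 genes, 49 lay above 0, against 3737 of all 7546 genes, with a median of 0.26, and 0 passed 2-fold. This came with total mRNA that was lower in morphants (median log2 ratio -0.40) and polysomal mRNA that was lower by less (-0.15). SOX2 (ENSDARG00000070913), which keeps neural cells in the progenitor state, had 34.2 RPKM in morphant and 27.2 RPKM in wild-type polysomal mRNA, and 48.3 RPKM in morphant and 66.6 RPKM in wild-type total mRNA. It thus stood higher on polysomes and lower in the embryo, a change of 0.78. The Notch effector gene HES1 lay at 0.92. The other 15 lay below 0, among them the lowest, FABP7 (ENSDARG00000007697) at -0.86, and GFAP at -0.84, both of which radial glia express. No comparison of the lists with each other was tested.

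Tailbud genes lay on the higher side. All 14 tailbud and presomitic mesoderm genes above the floor lay above 0 in association, with a median of 0.63. Of them, 3 (21.4%) were at least 2-fold higher, against 1.62% of all genes. Those 3, and 4 of the 14 in all, had 1 polysomal value under the floor, and the median was 0.50 over the 10 genes with at least 3 RPKM in all 4 libraries and 0.41 over 41 members without a floor. Their polysomal median was 0.50 and their total median -0.43, as log2 ratios of morphant to wild type. These cells form the segments of the trunk and tail under Wnt, Fgf and T-box control. The bHLH gene msgn1 (ENSDARG00000070546), which drives cells out of the progenitor pool into paraxial mesoderm, had 5.60 RPKM in morphant and 2.28 RPKM in wild-type polysomal mRNA, and 12.3 RPKM in morphant and 22.8 RPKM in wild-type total mRNA, a change of 2.0. The T-box gene tbx6 (ENSDARG00000011785), which marks the same cells, had 5.50 RPKM in morphant and 2.0 RPKM in wild-type polysomal mRNA, and 9.39 RPKM in morphant and 15.6 RPKM in wild-type total mRNA, a change of 1.96. In both, morphants were higher on polysomes and lower in total mRNA. The Fgf feedback inhibitor gene SPRY4 lay at 1.45 with near-equal total mRNA, at 17.7 RPKM in morphant and 19.4 RPKM in wild type. Smaller changes were found for cdx4 (0.95), SPRY2 (0.90), SALL4 (0.66) and the retinoic acid synthesis gene ALDH1A2 (0.60), and the retinoic acid breakdown gene CYP26A1 lay at 0.06.

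Posterior hox genes, which give the tail its identity, held the highest gene of all. HOXC12 (ENSDARG00000070352) had 3.58 RPKM in morphant and 0.615 RPKM in wild-type polysomal mRNA, and 14.4 RPKM in morphant and 22.6 RPKM in wild-type total mRNA. Its change was 2.50 (counting interval without pseudocount, 2.11 to 4.27). Its neighbour in the cluster, HOXC13 (ENSDARG00000070353), had 4.46 RPKM in morphant and 1.31 RPKM in wild-type polysomal mRNA, and 7.61 RPKM in morphant and 11.6 RPKM in wild-type total mRNA, a change of 2.03. HOXC12, HOXC13, msgn1, tbx6, SPRY4 and the midbrain gene EN2 (1.69) met the polysomal floor through the morphant library alone, so their direction was partly fixed by the floor. Of the 122 higher genes, 57 had 1 polysomal value under the floor, against 38 of the 232 lower genes.

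By position along the body, hox genes of groups 1 to 4 had a median of 0.29 over 11 genes, groups 5 to 8 of -0.03 over 7 genes, and groups 9 to 13 of 0.45 over 12 genes. In groups 9 to 13, 2 genes, HOXC12 and HOXC13, had 1 polysomal value under the floor. The median there was 0.37 over the 10 genes with at least 3 RPKM in all 4 libraries. Groups 9 to 13 ranged from HOXD9 at -0.79, with 19.9 RPKM in morphant and 31.8 RPKM in wild-type polysomal mRNA, to HOXC12. HOXC10, in the same cluster as HOXC12, lay at 0.32, and its polysomal values were near-equal at 9.67 RPKM in morphants and 9.81 RPKM in wild type. Developmental signalling lay slightly above the median of all genes: 15 of 19 Wnt, Bmp, Fgf, Hedgehog and Delta ligand genes and 17 of 19 of their receptor genes were above 0, with medians of 0.25 and 0.20. Of all 7546 genes, 3737 were above 0. In these 2 lists 0 genes passed 2-fold, against 4.69% of all genes.

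**Figure D3:**
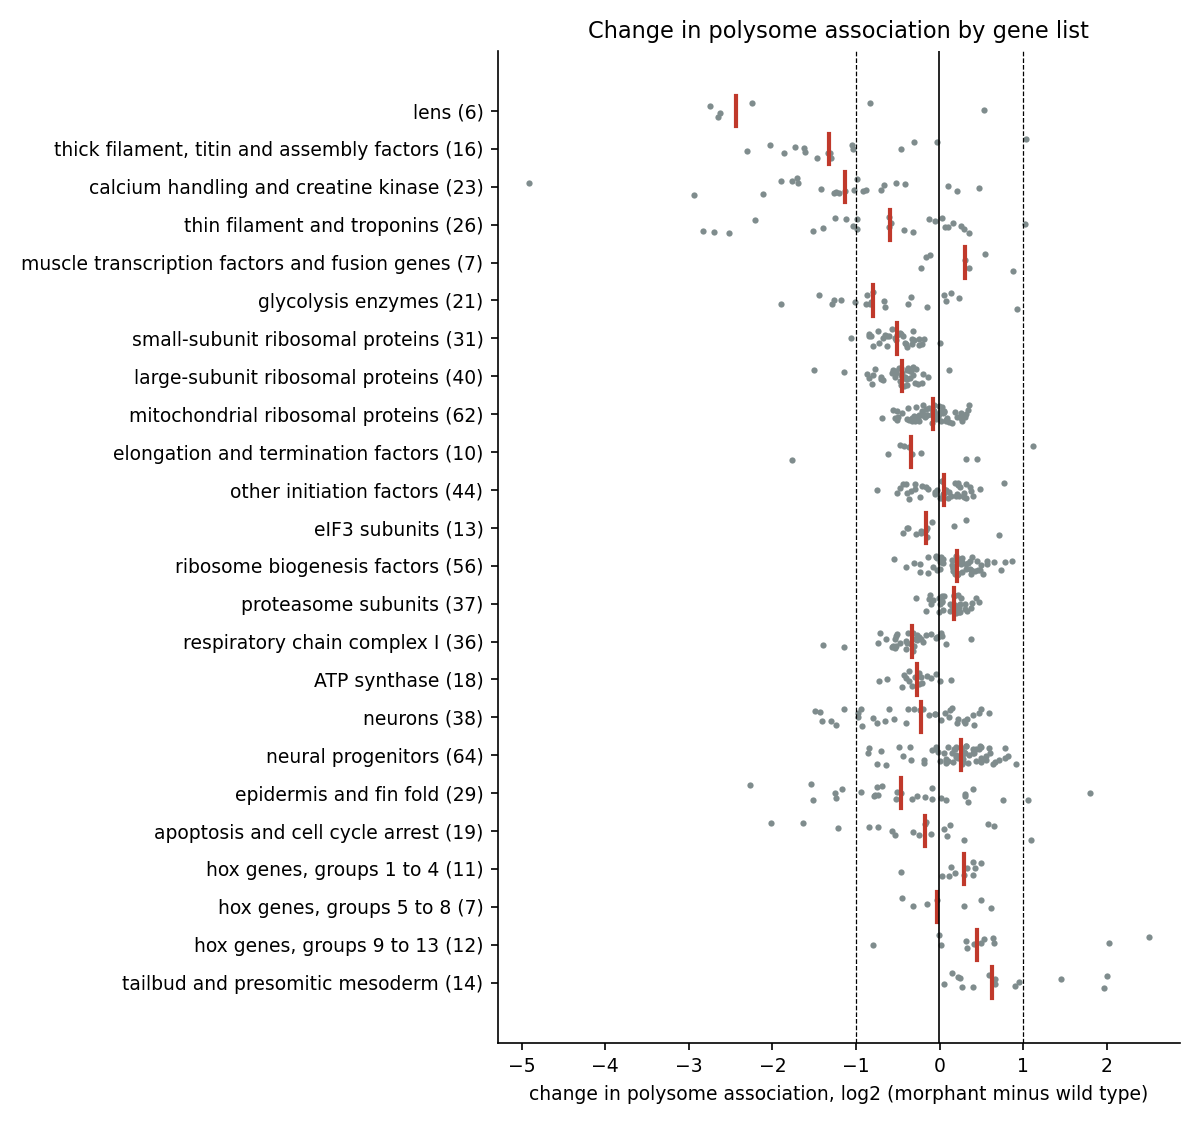
Change in polysome association (log2, morphant minus wild type) of every gene above the floor in 24 lists, with the number of genes in brackets; the bar is the median and the dashed lines mark 2-fold. Lens and muscle structure genes lie to the left, ribosomal protein genes form a narrow band left of 0, and tailbud genes lie to the right of 0.

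Lists of the translation machinery had medians on both sides of 0. Cytosolic ribosomal protein genes were lower in a narrow band, with 69 of 71 below 0, against 3809 of all 7546 genes, and a median of -0.46. Only 3 were at least 2-fold lower, which is 4.23% against 3.07% of all genes. Both subunits were alike at -0.45 for 40 large-subunit genes and -0.51 for 31 small-subunit genes. These transcripts are among the most polysome-enriched here, with a median log2 ratio of polysomal to total mRNA of 1.24 in morphants and 1.74 in wild type. RPL5 (ENSDARG00000020197), whose product joins the 5S particle of the large subunit, had 1296 RPKM in morphant and 3314 RPKM in wild-type polysomal mRNA, and 1196 RPKM in morphant and 1083 RPKM in wild-type total mRNA. Its change was -1.5, while the other RPL5 feature (ENSDARG00000015862) lay at -0.52. Near-identical copies of ribosomal protein genes may share reads, so single features are uncertain.

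Mitochondrial ribosomal proteins, made in the cytosol for a separate ribosome, had a median of -0.08 over 62 genes, and 0 passed 2-fold. Factors that build ribosomes stood on the other side of the median of all genes, with 44 of 56 above 0 and a median of 0.21. Among them the RNA acetyltransferase gene NAT10 lay at 0.86, with 9.36 RPKM in morphant and 6.56 RPKM in wild-type polysomal mRNA, and 25.1 RPKM in morphant and 32.8 RPKM in wild-type total mRNA. Proteasome genes were similar, with 29 of 37 above 0 and a median of 0.18.

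The 13 features of eIF3 subunits had a median of -0.16 and 0 passed 2-fold. EIF3D, whose product binds the mRNA cap, lay lowest at -0.43. EIF3B, a core scaffold subunit, lay highest at 0.71, with 93.9 RPKM in morphant and 64.1 RPKM in wild-type polysomal mRNA, and 275 RPKM in morphant and 308 RPKM in wild-type total mRNA. Other initiation factors had a median of 0.05 over 44 genes, with EIF2B5, a subunit of the exchange factor for eIF2, at 0.77 and PAIP1, a partner of the poly(A)-binding protein, at -0.75. The list of 10 elongation and termination factors had a median of -0.35, with 7 below 0 and 3 above. Its lowest was the translocase feature EEF2 (ENSDARG00000035256) at -1.77. EEF2 had 3.10 RPKM in morphant and 7.03 RPKM in wild-type polysomal mRNA, and 7.61 RPKM in morphant and 4.48 RPKM in wild-type total mRNA. The highest was EEF1E1, which sits in the synthetase complex, at 1.12 on 13.4 RPKM in morphant and 5.56 RPKM in wild-type polysomal mRNA. Under totals that leave out the 50 most abundant genes, the medians of eIF3 and of mitochondrial ribosomal proteins were 0.05 and 0.12, so their sign flips with the shift of all genes; relative to all genes they were -0.14 and -0.07.

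Energy metabolism was lower in part. Of 21 glycolysis genes, 6 (28.6%) were at least 2-fold lower and 0 higher, against 3.07% and 1.62% of all genes. Their median was -0.79 (-0.36 over 40 members without a floor). Outside the muscle lists 4 of 19 (21.1%) were lower, with a median of -0.67. Which cells express these 19 cannot be read from whole embryos. The muscle enolase gene ENO3 (ENSDARG00000039007) had 19.8 RPKM in morphant and 57.2 RPKM in wild-type polysomal mRNA, and 11.3 RPKM in morphant and 8.52 RPKM in wild-type total mRNA, a change of -1.89. ENO1, the form most tissues use, lay at -1.29 and the aldolase gene ALDOC at -1.44. Respiratory chain genes were lower by less, with 69 of 79 below 0 and a median of -0.30, and 3 at least 2-fold lower, which is 3.8% against 3.07% of all genes.

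The respiratory list held an outlying feature. The cytochrome c oxidase feature cox6b1 (ENSDARG00000045230) had 25.5 RPKM in morphant and 137 RPKM in wild-type polysomal mRNA, and 6.01 RPKM in morphant and 3.10 RPKM in wild-type total mRNA, a change of -3.26 (counting interval without pseudocount, -3.92 to -2.84). Its paralogue cox6b2, for the same subunit, was far more abundant, at 996 RPKM in morphant and 1046 RPKM in wild-type polysomal mRNA and 413 RPKM in morphant and 352 RPKM in wild-type total mRNA, and lay at -0.30. Complex I had a median of -0.33 over 36 genes, led by ndufa4b (-1.39) and NDUFB1 (-1.15). The ATP synthase had a median of -0.27 over 18 genes.

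Genes of apoptosis and cell cycle arrest, which act when cells are damaged, show how a lower association can come with more mRNA on polysomes. Of 19 such genes measured, 8 passed 2-fold higher in morphant total mRNA, with a median log2 ratio of 2.07. All 8 were higher on polysomes too, 7 of them at least 2-fold, with a median of 1.32, and 7 of the 8 had a negative association change. Choosing the 8 on total mRNA partly fixes that sign. PHLDA3 (ENSDARG00000037804), which restrains Akt, had 57.8 RPKM in morphant and 22.5 RPKM in wild-type polysomal mRNA, and 47.7 RPKM in morphant and 4.21 RPKM in wild-type total mRNA, a change of -2.01. The apoptosis initiator casp8 lay at -1.64 and the cyclin CCNG1 at -1.22. The BH3-only gene pmaip1 was the exception at 1.1, on 16.5 RPKM in morphant and 1.84 RPKM in wild-type polysomal mRNA, and 19.0 RPKM in morphant and 5.23 RPKM in wild-type total mRNA, and its counting interval without pseudocount ran from -0.35 to 2.96. It met the polysomal floor through the morphant library alone, so its direction was partly fixed by the floor. The median association of the list was -0.17, and 0.03 with totals that leave out the 50 most abundant genes, which is -0.16 relative to all genes.

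This arrangement was not limited to that list. Of the 73 genes at least 2-fold higher in morphant total mRNA, 63 were higher on polysomes, 28 of them at least 2-fold. The 73 genes had a median log2 ratio of 0.71 on polysomes against 1.37 in total mRNA, and 27 were at least 2-fold lower in association. Of the 23 genes at least 2-fold lower in total mRNA, the medians were -0.87 on polysomes and -1.21 in total mRNA, and 4 were at least 2-fold higher in association. Choosing genes on their total ratio pushes the association change the other way, since both use the same total libraries. CHAC1, a glutathione-degrading enzyme of the ATF4 stress pathway, was equal on polysomes at 89.7 RPKM in morphant and 89.2 RPKM in wild type, with 103 RPKM in morphant and 46.4 RPKM in wild-type total mRNA, a change of -1.13. The ATF4 list as a whole had a median of 0.10 over 16 genes.

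Skin genes went both ways. Of 29 epidermis and fin fold genes, 6 (20.7%) were at least 2-fold lower and 2 (6.9%) higher, against 3.07% and 1.62% of all genes. Their median change was -0.46. The polysomal median was -0.04 and the total median 0.46. Without a floor the median change was -0.08 over 56 members, close to the -0.07 of all genes. The keratin gene krt97 (ENSDARG00000000212) had 84.8 RPKM in morphant and 94.8 RPKM in wild-type polysomal mRNA, and 101 RPKM in morphant and 38.6 RPKM in wild-type total mRNA, a change of -1.53 that rests on total mRNA. The keratin gene krt1-19e (ENSDARG00000090268) lay at -2.27 and rests on polysomal mRNA, at 12.7 RPKM in morphant and 55.8 RPKM in wild type. For krt99 (ENSDARG00000019365) the sign was the opposite, at 1.80, with 7.40 RPKM in morphant and 4.60 RPKM in wild-type polysomal mRNA, and 17.9 RPKM in morphant and 40.9 RPKM in wild-type total mRNA. Related keratin genes resemble each other in sequence, so reads may be split between them.

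Further lists, of tissues and of cell functions, had medians on both sides of 0. Of 21 collagen chain genes, 3 (14.3%) were at least 2-fold lower and 1 (4.76%) higher, against 3.07% and 1.62% of all genes. The 3 lower were all chains of type I collagen (COL1A1 at -1.44, col1a1a at -1.05 and COL1A2 at -1.01). The 1 higher was col8a1a, at 1.32. Polysomal mRNA of col8a1a stood at 5.78 RPKM in morphant and 2.47 RPKM in wild type. It met the floor there through the morphant library alone, so its direction was partly fixed by the floor. The tubulin and cytoplasmic actin list had 5 of 34 genes (14.7%) at least 2-fold lower and 0 higher, against 3.07% and 1.62% of all genes. Its median was -0.22, and its lower genes included the alpha tubulin genes tuba8l3 (-1.23), tuba1c (-1.21) and TUBA1A (-1.16). Erythroid genes had a median of 0.31 over 15 genes, from an HBE1 feature (ENSDARG00000087390) at -1.36 to TAL1, a factor that starts blood formation, at 1.14. Of the 15, 2 (13.3%) were at least 2-fold higher and 1 (6.67%) lower, against 1.62% and 3.07% of all genes. Genes of the notochord had a median of 0.22 over 25. Splicing factors had a median of 0.00 over 75 genes, and cell cycle genes of 0.03 over 81. Both lists had 0 genes past 2-fold in either direction, against 4.69% of all genes.

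Length went with polysome association more closely than with its change. A model length was recovered for 6489 genes, 86.0% of those above the floor; the other 1057 are more abundant, at a median of 68.4 RPKM in total mRNA against 12.4 RPKM. The genes were split by length into 5 groups of near-equal size. In the shortest group (100 to 1292 bases) the median log2 ratio of polysomal to total mRNA was 0.34 in morphants and 0.33 in wild type, and in the longest group (5263 to 29153 bases) it was -0.78 in morphants and -0.73 in wild type. Across genes, Spearman's rho of length with polysomal over total mRNA was -0.407 in morphants and -0.333 in wild type (n = 6489 genes, which are not independent replicates, and length also enters each RPKM). For the change in association rho was -0.0597, and the 5 groups had medians between -0.03 and 0.03. Genes past 2-fold were most frequent among short models, with 4.39% lower and 5.47% higher in the shortest group, and 2.31% lower and 0.154% higher in the longest. Counting error was larger there as well, with a median width of the interval to either side of 0.364 in the shortest and 0.168 in the longest group, and among the 5826 genes with a mean of at least 200 read steps the shortest of 5 groups (100 to 1545 bases) had 3.68% lower and 2.83% higher, and the longest 2.23% lower and 0.0859% higher.

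**Figure D4:**
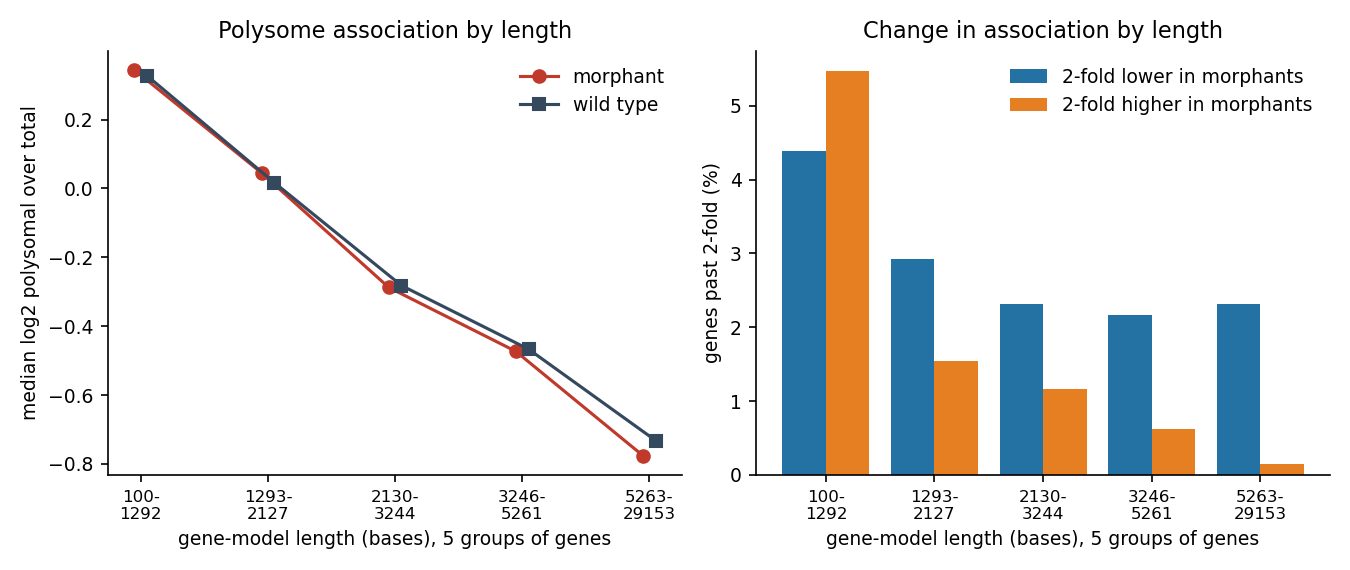
Left, the median log2 ratio of polysomal to total mRNA in 5 groups of the genes by gene-model length in bases, for morphants and wild type, slightly offset; right, the percentage of genes in each group with at least 2-fold lower or higher association in morphants. Both conditions run from about 0.34 and 0.33 down to -0.78 and -0.73, and the share of higher genes runs from 5.47% to 0.154%.

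Changes at the edge of the floor had medians near 0 on both sides, with a spread near that of all genes (SD 0.475). The 100 genes just inside the floor had a median change of 0.01 (SD over genes 0.43) and the 100 just outside 0.03 (SD 0.509), at limiting values of up to 3.08 and down to 2.92 RPKM. Lengths and read steps were recovered for 183 of the lower genes, of which 182 had a counting interval that left out 0, and for 116 of the higher genes, of which 110 did. Choosing genes past 2-fold largely fixed these counts. The median width of the interval to either side was 0.234 over the 6489 genes with recovered lengths. These intervals hold for counting alone, and how far 2 polysome preparations of 1 condition would differ cannot be read from 1 library each.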

How the data were processed

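Polysomal and total mRNA of morphant and wild-type embryos was sequenced as single reads of 36 bases from polyA libraries, per the labels. The authors deposited 1 RPKM value per gene and library; the submitters' processing notes name Zv9, and for the aligner, counter and annotation a name was not given in the sources used here. RPKM is never 0 in the files and moves in whole steps, reads plus 1, from which depth and gene-model length were recovered: the length is the smallest that makes all 4 values whole, and a library left out of the search came out whole, within 0.1 step, for 94.2 to 95.0% of genes. Steps may be too few by a common factor.

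From log2(RPKM + 0.5) the change was computed as morphant polysomal minus total, less wild-type polysomal minus total, with 3 RPKM as floor and 2-fold as threshold. The 95% intervals use the normal approximation on the log scale (1.96 standard errors from step counts), cover counting error only, and are given where lengths were recovered. The 54 gene lists were matched by symbol, which 6314 of the 7546 genes have; members and lists were chosen with earlier results of these data known, wrong matches were corrected, and 2 lists (small non-coding RNAs, clock genes) were added after seeing values. A gene of the apoptosis and cell cycle arrest list is not reported here. Capitalised symbols are orthologue-type names. Named genes are the feature named EIF3H, the 12 highest and 12 lowest with a symbol, up to 4 per list farthest from the median of all genes and 4 per kind and direction. Other list members named were chosen after their values were seen. The procedure was tested on simulated data. Alternatives were other scalings, pseudocounts, floors and folds. The work used NumPy 2.4.6 and SciPy 1.17.1 with pandas 2.3.3 on Python 3.11.15, and Matplotlib 3.10.9 for figures.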

Additional observations from a re-analysis of the deposited data

How the results depend on the processing

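No paired analysis was possible because each group has 1 library, and no library could be left out. Against 232 lower and 122 higher genes, removing the 50 most abundant genes from the totals gave 234 higher, no floor gave 932 lower and 494 higher, a floor of 12 RPKM gave 94 and 23, at least 3 RPKM in all 4 libraries gave 65 higher, and folds of 1.5 and 4 gave 639 and 29 lower and 537 and 5 higher. As shares, no floor gave 2.88% lower and 1.53% higher of 32313 genes, against 3.07% and 1.62% of 7546 in the main setting. The floor of 12 RPKM gave 3.02% lower and 0.74% higher of 3108 genes. The alternatives below on kinds of change were added after seeing the data. Without the 50 most abundant genes, polysomal mRNA alone differed for 62 lower (main 115) and 103 higher genes (main 38), and total mRNA alone for 10 (main 18) and 5 (main 2). With no floor these were 336, 112, 135 and 62, and opposite directions held 116 lower (main 28) and 49 higher (main 11); with a floor of 12 RPKM they were 44, 9, 5 and 0, and 11 and 0. Polysomal mRNA alone differed for 21 higher genes with a pseudocount of 1, for 59 with 0.1, and for 18 with at least 3 RPKM in all 4 libraries, where opposite directions held 5. Without a floor the retina median was -0.0002069 and the endothelium median 0.02882, the opposite sign to the values above the floor. The median of all genes was then -0.06751. The retina median thus stayed above that of all genes, while the endothelium median moved from below it to above it. The cause of either move was not tested. Medians of other lists also came closer to 0 without a floor by over 1.5 times, as for erythroid genes (0.05), ligands (0.05), notochord (0.09) and tubulins (-0.11), besides those given with the results. No named gene past 2-fold changed sign under these alternatives. The change by protein length was not run, since no table of protein lengths was used; gene-model length took its place. Counting limits low and short genes most, where the interval was widest.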

Other observations

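Clock genes and small non-coding RNAs were looked at after their values were seen. Association was at least 2-fold lower for 3 of 10 clock genes (30.0%, against 3.07% of all genes), and 3 of the 10 lay above 0. The list median was -0.39, and -0.29 over the 9 genes with at least 3 RPKM in all 4 libraries. Polysomal levels of the 3 lower genes were close in both conditions. PER1 (ENSDARG00000012499), a repressor of the daily clock, had 3.81 RPKM in morphant and 3.73 RPKM in wild-type polysomal mRNA, and 13.1 RPKM in morphant and 3.40 RPKM in wild-type total mRNA, a change of -1.78. NR1D2 lay at -1.37 and ciarta at -1.05 with the same arrangement. The hour at which each library's embryos were collected is not in the labels, and its part in these values was not tested.

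Of 19 small non-coding RNA features measured, 7 (36.8%) were at least 2-fold lower and 1 (5.26%) higher, against 3.07% and 1.62% of all genes. The median was -0.65, and -0.33 over all 857 such features without a floor. In all, 8 of the 19 had 1 polysomal value under the floor, among them SNORD36C, SNORD33, SNORD83A and dre-mir-133c, which met it through wild type alone, so their direction was partly fixed by the floor. SNORD36C, a small nucleolar RNA, had 0.640 RPKM in morphant and 8.04 RPKM in wild-type polysomal mRNA, and 8.04 RPKM in morphant and 6.78 RPKM in wild-type total mRNA. The 5_8S_rRNA feature lay at 1.35, with 531 RPKM in morphant and 304 RPKM in wild-type polysomal mRNA, and 53.1 RPKM in morphant and 77.9 RPKM in wild-type total mRNA. Such RNAs have no poly(A) tail of their own as mature molecules, and small nucleolar RNAs often lie in introns of host genes, so reads on them may come from other transcripts. The muscle microRNA features mir133b (-1.62) and dre-mir-133c (-1.77) were lower as well.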
